A study of Mus musculus with 49 samples.

Results

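PD-1, encoded by Pdcd1, is an inhibitory receptor of the CD28 family that appears on T cells after activation and stays on T cells under prolonged stimulation. Its ligands are PD-L1, encoded by Cd274 and carried by many tumour, myeloid and stromal cells, and PD-L2, encoded by Pdcd1lg2 and mostly carried by dendritic cells and macrophages. Once a ligand binds, PD-1 recruits phosphatases that dampen signalling from the T cell receptor and CD28. Interferon-gamma, which activated T cells and NK cells secrete, is a known inducer of both ligands through JAK kinases and the transcription factor IRF1. These 3 genes were described here among the 39179 genes of the count table, chosen by symbol, and all 3 passed the filter on low counts. Ifng, which encodes interferon-gamma, and Cd8a, which encodes a chain of the co-receptor of cytotoxic T cells, served as comparison genes.

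The data are 3′ end counts from 49 tumours of CT26, a mouse colorectal carcinoma line, in BALB/c mice. Mice with tumours injected 7 days earlier were randomised to vehicle (DMSO and PEG400 in water, 9 tumours), celecoxib (a COX-2 inhibitor that lowers prostaglandin production, 30 mg/kg daily, 7 tumours), an antibody against PD-1 (200 µg per dose, 2 doses, 17 tumours), or both (16 tumours, called the combination), for 7 days. Collection is given as day 7 in the tissue label but as day 4 in the extraction protocol, and this conflict is unresolved. Each tumour is labelled R or NR, a response label that is not defined: all vehicle and celecoxib tumours are NR, 4 of 17 anti-PD-1 tumours are R and 12 of 16 combination tumours are R. The labels do not say that every tumour came from a separate animal, so p-values describe only the variation among these samples. Replicate numbers only name tumours.

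Total counts per library ranged from 4251251 to 13671294, with a median of 7670623, and 3 counts correspond to between 0.210 and 0.676 CPM, the count scaled to the library size. Library sizes for CPM were scaled by TMM. The 5 markers listed for carcinoma and epithelium together (Krt8, Krt18, Krt19, Epcam, Cdh1) summed to 7.65 CPM or more in every tumour. That sum does not measure carcinoma content alone. Of the 49 libraries, 14 carried skeletal muscle, skin or adipocyte transcripts above the limits used here: 5 with anti-PD-1, 5 with the combination, 2 with celecoxib and 2 with vehicle. These are bulk samples, in which fewer cells of a type and less RNA per cell cannot be told apart.

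On GRCm38, Pdcd1 (ENSMUSG00000026285) spans chr1:94038305-94052553 on the minus strand with 5 exons. The ligand genes are neighbours on the plus strand of chromosome 19. Cd274 (ENSMUSG00000016496) spans chr19:29367455-29388095 with 7 exons, and Pdcd1lg2 (ENSMUSG00000016498) spans chr19:29410919-29471161 with up to 6. A stretch of 22823 bases with no annotated gene separates them. Each ligand gene overlaps an antisense gene, AC119228.1 at Cd274 and A930007I19Rik at Pdcd1lg2, and the sources used here do not state whether counting used the strand, so their reads may not be fully separated. Ifng lies at chr10:118441046-118445892 and Cd8a at chr6:71373427-71379173.

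The sequence just before each start site is shown because the ligands were set against interferon-gamma below and the receptor against a T cell gene. The stretches are from RefSeq on GRCm38.p6, written 5′ to 3′ on the strand of the gene. Each ends at the RefSeq start, which for Cd274 lies upstream of the start given above. They are chr1:94052554-94052803 for Pdcd1 (minus strand), chr19:29367309-29367437 for Cd274 (plus strand, the part of the window outside the coding transcripts of its neighbour Plgrkt, though not outside a non-coding transcript of that gene) and chr19:29410669-29410918 for Pdcd1lg2 (plus strand). Capitals mark matches, on either strand, to an interferon regulatory factor core (AANNGAAA) or to the core bound by NFAT, a factor downstream of the T cell receptor (GGAAA).
Pdcd1: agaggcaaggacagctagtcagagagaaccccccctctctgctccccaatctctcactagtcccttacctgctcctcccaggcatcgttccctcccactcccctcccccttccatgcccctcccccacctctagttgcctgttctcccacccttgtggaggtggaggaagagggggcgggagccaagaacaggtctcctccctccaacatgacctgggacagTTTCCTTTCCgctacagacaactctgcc
Cd274: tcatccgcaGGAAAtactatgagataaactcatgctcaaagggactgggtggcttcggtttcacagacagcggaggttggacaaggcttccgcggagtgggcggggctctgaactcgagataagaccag
Pdcd1lg2: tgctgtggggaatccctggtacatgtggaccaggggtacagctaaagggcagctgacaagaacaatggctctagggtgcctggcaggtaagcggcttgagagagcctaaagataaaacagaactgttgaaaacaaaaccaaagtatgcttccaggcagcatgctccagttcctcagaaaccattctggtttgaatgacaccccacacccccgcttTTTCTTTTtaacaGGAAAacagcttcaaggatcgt

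The interferon regulatory factor core was found in the 250 bases before the start of all 3 genes, against 21.3% of 32851 promoters of that length. In Pdcd1 it lies 28 to 21 bases before the start, overlapping an NFAT core at 28 to 24 and another at 23 to 19. In Pdcd1lg2 it lies at 35 to 28, next to an NFAT core at 22 to 18. In Cd274 it lies at 175 to 168, outside the stretch shown, and an NFAT core lies at 120 to 116. The NFAT core is common, with a match in 55.6% of promoters. A match is a description of letters, not a binding site.

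The receptor, Pdcd1, was present at a few CPM with a wide spread inside every treatment. With vehicle the lowest, median and highest tumours held 0.660, 8.61 and 21.8 CPM. With celecoxib they held 0.599, 4.70 and 23.4 CPM, and with anti-PD-1 0.124, 2.10 and 27.8 CPM. With the combination they held 0, 11.4 and 73.9 CPM. The highest level of all 49 tumours was that of combination replicate 1, and the next combination tumour held 30.0 CPM. Combination replicate 10 held 0 counts, and the limit of 3 counts in that library is 0.537 CPM. All 4 groups overlapped: 12 of 16 combination tumours lay above the anti-PD-1 median, but only 2 above the highest anti-PD-1 tumour.

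Group means of Pdcd1 were 8.48 ± 6.72 CPM with vehicle (SD, n = 9), 6.57 ± 8.28 under celecoxib (n = 7), 5.68 ± 8.65 under anti-PD-1 (n = 17) and 14.2 ± 18.1 under both (n = 16). The SD was close to or above the mean in each. Combination against anti-PD-1 gave a log2 fold change of 1.33 (SE 0.61, edgeR adjusted p = 0.248), in a comparison where 0.503% of 13726 tested genes passed the limit of 0.05 on the adjusted p. Without combination replicate 1 the value was 0.85. Combination against vehicle gave 0.75 (SE 0.74, edgeR adjusted p = 0.631, with 0.0729% of genes called). That value was 0.25 without combination replicate 1 and ranged from 0.064 to 0.94 over 7 alternatives. Anti-PD-1 against vehicle gave -0.58 (SE 0.71, edgeR adjusted p = 0.9998, with 0.0874% called), and -1.14 to -0.24 over the alternatives. No difference of Pdcd1 between treatments passed the test.

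Cd274, the PD-L1 gene, showed a narrower spread and a combination group that stood mostly above the vehicle tumours. With vehicle the lowest, median and highest tumours held 9.88, 18.3 and 27.5 CPM. With celecoxib they held 7.29, 17.6 and 53.6 CPM, and with anti-PD-1 5.61, 16.2 and 72.4 CPM. With the combination they held 10.2, 61.4 and 161 CPM. Of the 16 combination tumours 13 lay above the highest vehicle tumour, 9 above the highest celecoxib tumour and 3 above the highest anti-PD-1 tumour. The 161 CPM were those of combination replicate 14, a library with skeletal muscle transcripts, and the next tumour held 95.8 CPM. The 3 combination tumours within the vehicle range were replicates 2, 6 and 10, with 15.1, 11.2 and 10.2 CPM.

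Mean Cd274 levels were 19.5 ± 6.35 CPM in vehicle tumours, 26 ± 19.1 under celecoxib, 24.7 ± 20.1 under anti-PD-1 and 59.1 ± 38.2 under both agents (SD, n as above). Combination against anti-PD-1 gave a log2 fold change of 1.27 (SE 0.34, 95% interval 0.59 to 1.95), with an unadjusted p of 0.000475 and an edgeR adjusted p of 0.0656. Combination against vehicle gave 1.60 (SE 0.43, edgeR adjusted p = 0.129). Neither passed the limit over all genes by edgeR. Both passed it by DESeq2, with log2 fold changes of 1.27 and 1.61 and adjusted p of 0.0237 and 0.0226, in fits that called 297 and 67 genes where edgeR called 69 and 10. Over 7 alternatives the adjusted p ranged from 0.0237 to 0.312 against anti-PD-1 and from 0.0226 to 0.222 against vehicle. Without the 14 libraries of other tissue the log2 fold changes were 1.003 and 1.58 (edgeR adjusted p = 0.312 and 0.0675). Leaving out each tumour in turn moved the edgeR value against anti-PD-1 between 1.09 and 1.46, with an adjusted p between 0.0227 and 0.127. It was under the limit in 9 of 49 such fits, those without anti-PD-1 replicates 1, 2, 12 or 17 or combination replicates 2, 3, 6, 10 or 15. Against vehicle it was under the limit without combination replicate 15 (1.66, adjusted p = 0.0489). Macrophage and monocyte markers (9 of 9 detected in every group) had median summed levels of 2708 CPM in combination tumours, 1767 with anti-PD-1 and 1903 with vehicle. The ranges overlapped (407 to 6373, 509 to 5865 and 426 to 2829 CPM). By edgeR no such marker passed the limit in either comparison. The part of these cells in the Cd274 values was not tested.

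Pdcd1lg2, the PD-L2 gene, was counted at lower CPM in the same libraries. With vehicle the lowest, median and highest tumours held 1.25, 2.75 and 5.61 CPM. With celecoxib they held 0.456, 3.31 and 5.77 CPM, and with anti-PD-1 0.526, 2.30 and 12.3 CPM. With the combination they held 0.179, 5.60 and 32.97 CPM, the lowest being a single count in replicate 10 and the highest replicate 13. Of the 16 combination tumours 8 lay above the highest vehicle tumour and 3 below the lowest, so this group covered the range of the others on both sides. Dendritic cell markers (9 of 9 detected) had median sums of 267 CPM with the combination, 316 with anti-PD-1 and 293 with vehicle. In combination against anti-PD-1, 6 of the 9 had positive log2 fold changes, with a median of 0.156 and a range of -1.22 to 1.06.

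Means of Pdcd1lg2 were 2.93 ± 1.66 CPM in vehicle tumours, 3.00 ± 1.93 under celecoxib, 4.10 ± 3.76 under anti-PD-1 and 8.65 ± 9.04 under both agents (SD, n as above). Combination against anti-PD-1 gave a log2 fold change of 1.08 (SE 0.46, edgeR adjusted p = 0.216), and combination against vehicle 1.57 (SE 0.59, edgeR adjusted p = 0.206). Neither passed the test. Without the libraries of other tissue they were 0.80 and 1.37, and those of Pdcd1 1.18 and 0.94. The comparisons with vehicle share the vehicle tumours, and those of the combination share the combination tumours, so their values are not independent.

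**Figure D1:**
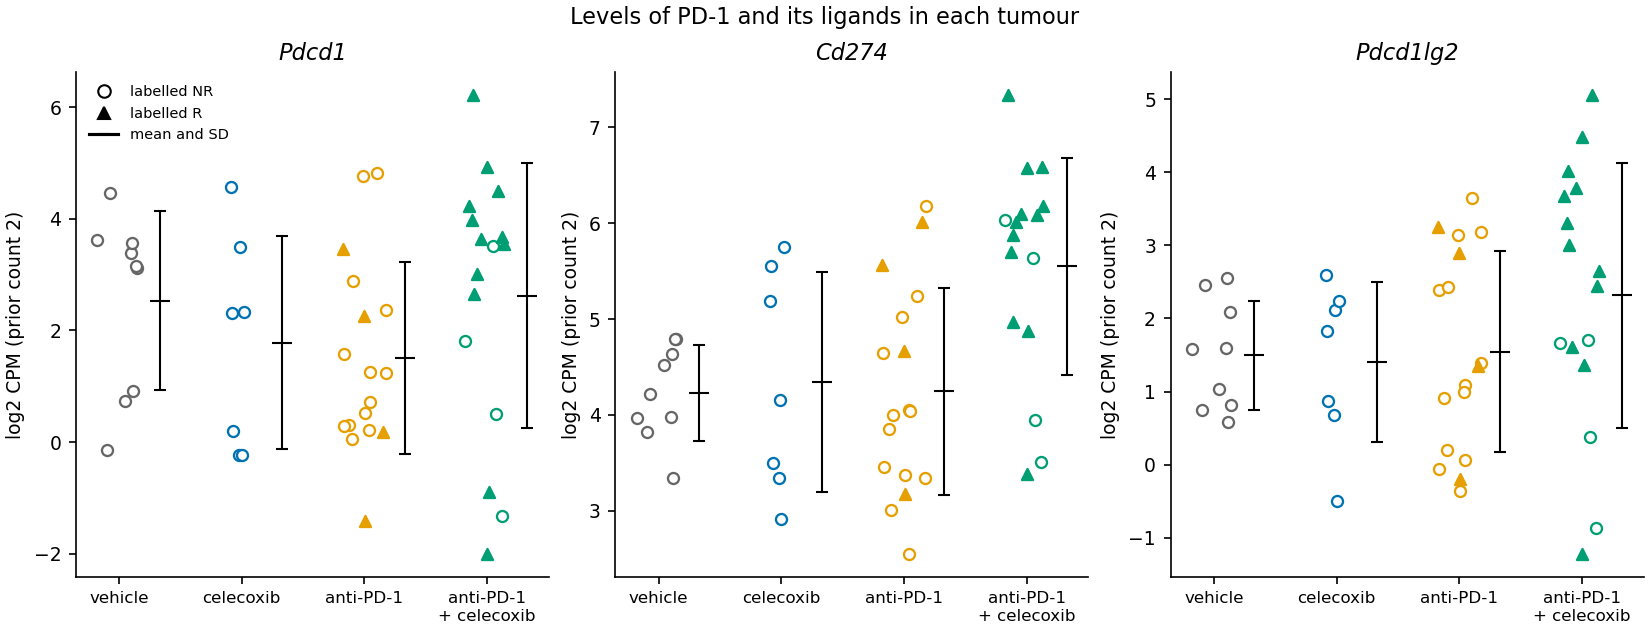
Level of Pdcd1, Cd274 and Pdcd1lg2 in each of 49 tumours (y axis, log2 CPM with a prior count of 2) by treatment (x axis). Open circles are tumours labelled NR, filled triangles those labelled R, and black bars the mean and SD of the log2 values. Most combination tumours lie high for Cd274, while for Pdcd1 and Pdcd1lg2 that group holds both the highest and the lowest tumours.

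With celecoxib alone none of the 3 genes differed from vehicle past the limit. The log2 fold changes against vehicle were -0.32 for Pdcd1 (95% interval -2.11 to 1.46), 0.43 for Cd274 (-0.55 to 1.41) and 0.08 for Pdcd1lg2 (-1.30 to 1.46), each with an edgeR adjusted p of 0.9999. These intervals are wide on both sides of 0, so the test does not show that levels were alike. Leaving out 1 tumour moved the 3 values to between -1.14 and -0.027, 0.15 and 0.60, and -0.17 and 0.27. In that comparison 0% of tested genes were called by edgeR, with 314 at an unadjusted p under 0.05 and 7 called by DESeq2. Anti-PD-1 alone gave 0.33 for Cd274 (-0.48 to 1.15) and 0.49 for Pdcd1lg2 (-0.65 to 1.63), both with an edgeR adjusted p of 0.9998. The value of Cd274 was 0.15 without anti-PD-1 replicate 1 and -0.057 with limma-voom.

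Combination against celecoxib alone gave 1.07 for Pdcd1 (SE 0.83), 1.17 for Cd274 (SE 0.46) and 1.496 for Pdcd1lg2 (SE 0.65), with edgeR adjusted p of 0.926, 0.918 and 0.918 and 0.0364% of genes called. The value of Pdcd1 was 0.59 without combination replicate 1 and 1.89 without celecoxib replicate 4. The interaction asks whether the change with celecoxib differed between tumours with and without the antibody. It was 1.65 for Pdcd1 (SE 1.09), 0.84 for Cd274 (SE 0.60) and 1.004 for Pdcd1lg2 (SE 0.84), each with an edgeR adjusted p of 0.9996. All 3 values were positive, none passed, and 0% of genes were called (413 at an unadjusted p under 0.05, and 2 by DESeq2).

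**Figure D2:**
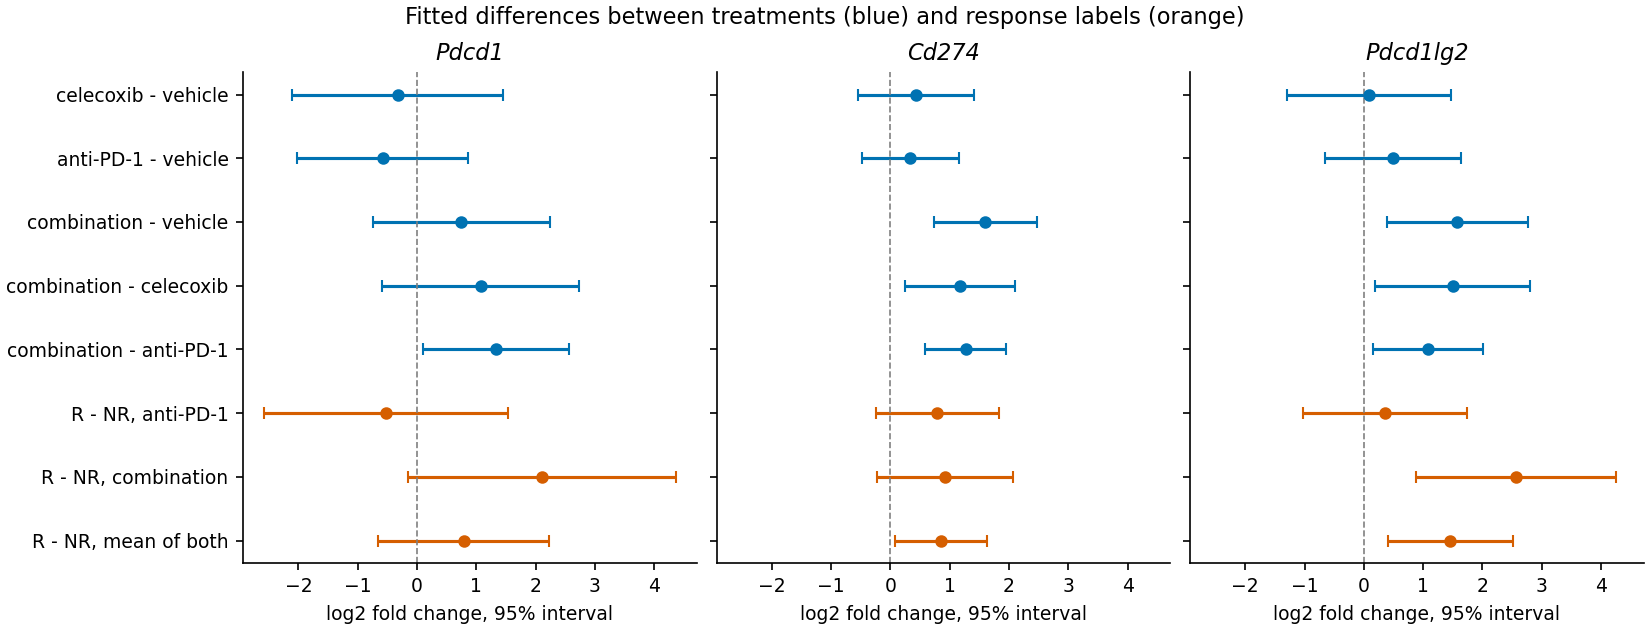
Log2 fold change with its 95% interval (x axis) for each member and comparison (y axis), treatments in blue from the fit of 4 groups and response labels in orange from the fit of 6 groups. Before adjustment for the number of genes, the intervals of Cd274 and Pdcd1lg2 lie above 0 for combination against vehicle, celecoxib and anti-PD-1, as do that of Pdcd1 for combination against anti-PD-1, that of Pdcd1lg2 for R against NR with the combination, and those of both ligands for the mean of the label effects. The widest intervals are those of Pdcd1.

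Among the 3 genes, response labels divided the combination tumours most clearly for Pdcd1lg2. The 4 NR combination tumours held 0.298, 1.04, 2.92 and 3.00 CPM. The 12 R combination tumours had a lowest of 0.179, a median of 8.70 and a highest of 32.97 CPM, and 9 of 12 lay above every NR tumour. The exceptions were replicates 8, 10 and 15, with 2.79, 0.179 and 2.32 CPM. The means were 1.82 ± 1.36 CPM (SD, n = 4) and 10.9 ± 9.40 (n = 12). The log2 fold change of R against NR was 2.56 (SE 0.84, 95% interval 0.87 to 4.25), with an unadjusted p of 0.00374 and an edgeR adjusted p of 0.409. Without the libraries of other tissue it was 2.11. It did not pass, in a comparison where 0% of 14247 genes were called by edgeR, 1298 had an unadjusted p under 0.05 and DESeq2 called 17. There Ifng stood at 1.66 (SE 0.98, edgeR adjusted p = 0.597) and Cd8a at 1.81 (SE 1.15, edgeR adjusted p = 0.617). For each of these comparison genes 7 of 12 R tumours lay above every NR tumour.

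With anti-PD-1 alone the labels did not divide Pdcd1lg2 in this way. The 4 R tumours held 0.620, 2.30, 7.16 and 9.24 CPM, inside the range of the 13 NR tumours (0.526 to 12.3, median 1.87). The log2 fold change was 0.35 (SE 0.69, edgeR adjusted p = 0.989, 0% of genes called, 923 at an unadjusted p under 0.05 and 0 by DESeq2), and -0.16 without anti-PD-1 replicate 17. The difference between both effects of the label was 2.21 (SE 1.08), with an unadjusted p of 0.0459 and an edgeR adjusted p of 0.999 (0% called, 329 at an unadjusted p under 0.05 and 2 by DESeq2). So a difference between treatments in the effect of the label was not shown. The mean of both effects was 1.46 (SE 0.52, edgeR adjusted p = 0.192, with 0.0491% of genes called).

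For Pdcd1 the 4 NR combination tumours held 0.149, 1.18, 3.24 and 11.2 CPM. The 12 R tumours had a lowest of 0, a median of 12.4 and a highest of 73.9 CPM, and 8 of 12 lay above every NR tumour. The log2 fold change was 2.11 (SE 1.12, edgeR adjusted p = 0.559). With anti-PD-1 the 4 R tumours held 0.124, 0.884, 4.56 and 10.8 CPM, against 0.790 to 27.8 (median 2.10) in the 13 NR tumours, and the log2 fold change was -0.52 (SE 1.02, edgeR adjusted p = 0.989). The mean effect was 0.79 (SE 0.72, edgeR adjusted p = 0.656) and the difference of the effects 2.63 (SE 1.52, edgeR adjusted p = 0.999). The signs under each treatment were opposite and neither value passed. Leaving out 1 tumour moved the value with the combination between 1.60 and 3.53 and that with anti-PD-1 between -1.63 (without anti-PD-1 replicate 17) and -0.039. It moved the mean effect between 0.24 (without the same replicate) and 1.51 (without combination replicate 12).

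Median levels of T cell transcripts differed between the same groups. The summed level of 12 T cell markers, all 12 detected in each group, had a median of 171 CPM in R combination tumours and 84.2 in NR ones. All 12 had a positive log2 fold change of R against NR there, with a median of 1.30. By edgeR none passed the limit, and 1 had an unadjusted p under 0.05. All 12 skeletal muscle markers were also positive in that comparison, with a median of 3.43. With anti-PD-1 the medians of the summed T cell level were 56.7 in R and 45.9 in NR tumours. Only 3 of the 12 T cell markers had a positive log2 fold change there, with a median of -0.28, and none passed the limit. By treatment the medians of the summed T cell level were 129 with the combination, 45.9 with anti-PD-1, 61.03 with celecoxib and 75.98 with vehicle. Combination replicates 10 and 15, both labelled R, held 48.3 and 10.2 CPM of T cell markers, and replicate 15 also held 2885 CPM of skeletal muscle markers. The part of T cell content in the response values of Pdcd1 was not tested.

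For Cd274 the 4 NR combination tumours held 11.2, 15.1, 49.3 and 65.3 CPM, and the 12 R tumours had a lowest of 10.2, a median of 66.02 and a highest of 161 CPM. The groups overlapped, with 6 of 12 R tumours above every NR tumour. The log2 fold change was 0.92 (SE 0.57, edgeR adjusted p = 0.612). With anti-PD-1 the 4 R tumours held 8.80, 25.2, 47.2 and 64.3 CPM, against 5.61 to 72.4 (median 15.7) in NR tumours, and the log2 fold change was 0.79 (SE 0.52, edgeR adjusted p = 0.853). The mean effect was 0.85 (SE 0.38, unadjusted p = 0.0313, edgeR adjusted p = 0.304). The difference of both effects was 0.12 (SE 0.76, 95% interval -1.41 to 1.66). It was -0.74 without the libraries of other tissue, where the effects were 0.55 with the combination and 1.29 with anti-PD-1, and its sign turned in 6 of 33 fits that left out 1 tumour (-0.20 to 0.60). Without anti-PD-1 replicate 12 the effect with anti-PD-1 was 0.38.

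Combination against anti-PD-1 was also compared within each label. Among NR tumours (4 against 13) the log2 fold changes were -0.58 for Pdcd1, 0.75 for Cd274 and -1.05 for Pdcd1lg2, with SE of 1.04, 0.52 and 0.78, edgeR adjusted p from 0.859 to 0.939, and 0.0281% of genes called. Leaving out 1 tumour moved the values to between -2.01 (without combination replicate 12) and -0.079 for Pdcd1, 0.29 (without combination replicate 5) and 1.08 for Cd274, and -1.435 and -0.71 for Pdcd1lg2. Among R tumours (12 against 4) they were 2.05, 0.88 and 1.16, with SE of 1.11, 0.57 and 0.74 and edgeR adjusted p from 0.687 to 0.735. Leaving out 1 tumour gave 1.57 to 3.16, 0.56 to 1.30 and 0.79 to 1.67. Without the libraries of other tissue the value of Cd274 among R tumours was 0.16 and that of Pdcd1lg2 0.62. No gene was called among R tumours (0% by edgeR, 1051 at an unadjusted p under 0.05, 0 by DESeq2). Cd274 had a positive value in both labels, whereas Pdcd1 and Pdcd1lg2 were negative among NR and positive among R tumours. None of these values passed, so a difference in direction between labels was not shown. The groups were selected by an undefined response label that took unlike shares of each treatment, so the values are not plain treatment differences.

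With treatment taken into account over all tumours, both ligands rose with Ifng, and Pdcd1lg2 did so more steeply and more tightly. For Cd274 the relation was not detectable inside vehicle tumours alone (r = 0.30, n = 9). Ifng held a lowest, median and highest level of 1.25, 3.63 and 9.59 CPM in vehicle tumours, 0.608, 3.43 and 21.96 under celecoxib, 0.124, 1.77 and 29.4 under anti-PD-1, and 0.726, 9.03 and 39.4 under both agents. In a fit with treatment and log2 CPM of Ifng, Pdcd1lg2 had a slope of 0.82 log2 units per log2 unit of Ifng (SE 0.06, edgeR adjusted p = 4.96e-16). Cd274 had a slope of 0.44 (SE 0.07, edgeR adjusted p = 5.82e-06). Many genes varied with Ifng in these tumours: 34.6% of 13725 tested genes were called in this fit, so passing it is common. Pdcd1 also had a slope on Ifng, of 1.12 (SE 0.08, edgeR adjusted p = 8.37e-17), and Cd8a one of 1.14 (SE 0.08, edgeR adjusted p = 1.11e-15). The fit does not separate Ifng from T cell content, and the part of that content in the slopes was not tested.

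After each treatment's mean was subtracted, Pdcd1lg2 and Ifng had a Pearson r of 0.91 and a Spearman rho of 0.94 over 49 tumours (permutation p = 1e-05 for both, the smallest that 100000 resamples can give, and adjusted p = 1e-05 over 7 relations). Without the 2 tumours farthest from the median of Ifng, r was 0.92. Inside single treatments r was 0.94 in vehicle, 0.90 in celecoxib, 0.95 in anti-PD-1 and 0.90 in combination tumours. Adjusted over 28 relations within treatments, the exact permutation p was 0.00147 for vehicle (n = 9) and 0.00882 for celecoxib (n = 7). The relation held in every treatment, and in celecoxib tumours both genes had the same rank order (rho = 1).

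Cd274 and Ifng had a Pearson r of 0.71 and a rho of 0.71 over the 49 centred values (permutation p = 1e-05 for both, adjusted p = 1e-05), and r was 0.70 without the 2 farthest tumours. Inside treatments r was 0.77 with celecoxib (adjusted exact permutation p = 0.0440, n = 7), 0.70 with anti-PD-1 (adjusted permutation p = 0.00394) and 0.77 with the combination (adjusted permutation p = 0.00153). With vehicle r was 0.30 (adjusted exact permutation p = 0.426, n = 9) and fell to 0.024 without the 2 tumours farthest from the median, so the relation was not detectable there. Vehicle tumours also had the smallest range of Cd274, from 9.88 to 27.5 CPM.

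Some tumours showed high Cd274 without high Ifng. Anti-PD-1 replicate 12, labelled R, held 64.3 CPM of Cd274 with 1.77 CPM of Ifng, 0.707 of Cd8a and 2.30 of Pdcd1lg2. Celecoxib replicate 3 held 46.5 CPM of Cd274 with 3.43 of Ifng. The library of the latter carried skeletal muscle transcripts (3495 CPM of muscle markers), and that of the former 10.6 CPM. These tumours were picked after their values were seen.

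**Figure D3:**
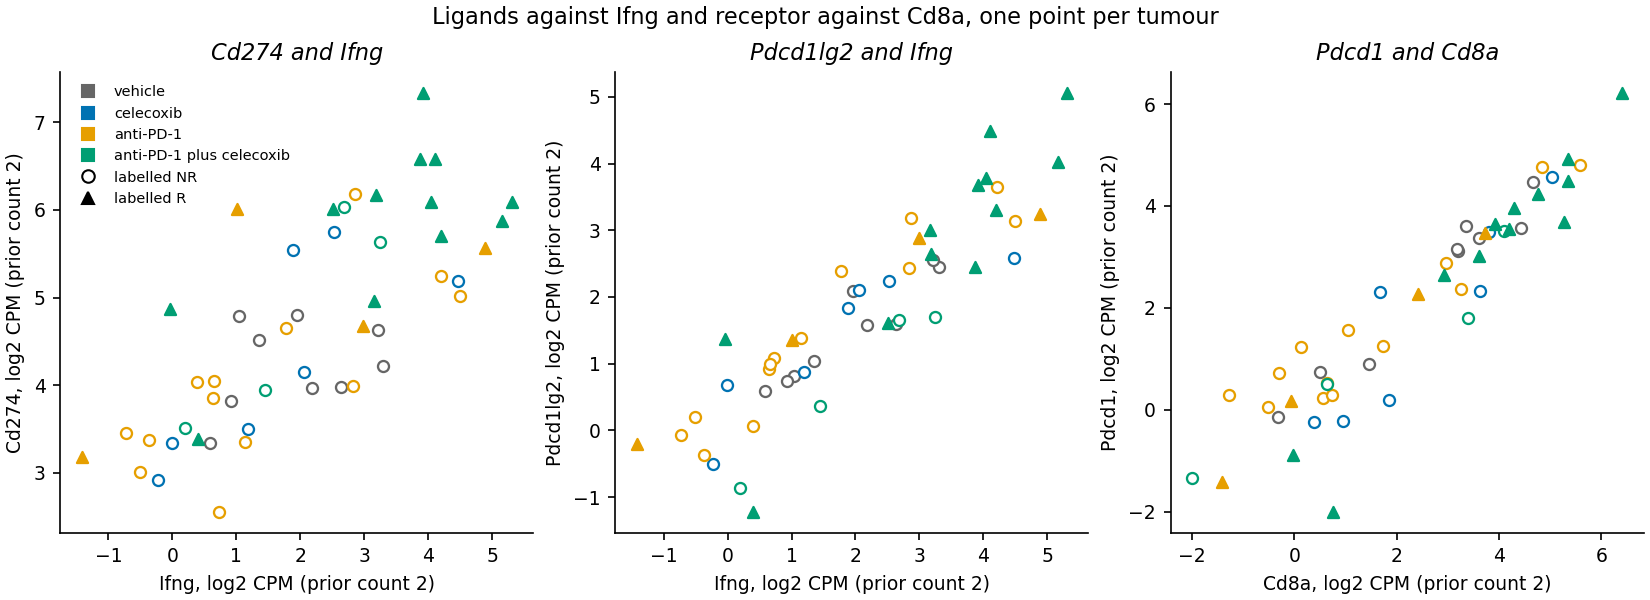
Cd274 and Pdcd1lg2 against Ifng, and Pdcd1 against Cd8a, on log2 CPM axes (prior count 2), with 1 point per tumour coloured by treatment; open circles are NR and filled triangles R. Pdcd1lg2 against Ifng and Pdcd1 against Cd8a form narrow bands shared by the 4 treatments, while Cd274 scatters more widely at a given Ifng, as the Pearson r of 0.91, 0.94 and 0.71 state.

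At equal Ifng the difference between combination and anti-PD-1 was smaller for both ligands. For Pdcd1lg2 the log2 fold change was -0.16 (SE 0.24, 95% interval -0.64 to 0.32, edgeR adjusted p = 0.762), against 1.08 without the covariate. For Cd274 it was 0.63 (SE 0.29, 95% interval 0.06 to 1.21), with an unadjusted p of 0.0315 and an edgeR adjusted p of 0.235, against 1.27 without the covariate. In this comparison 0.452% of genes were called. Against vehicle at equal Ifng, Pdcd1lg2 stood at 0.23 (SE 0.28, edgeR adjusted p = 0.721) and Cd274 at 0.95 (SE 0.33, unadjusted p = 0.00658, edgeR adjusted p = 0.152), with 0.299% of genes called. The Cd274 values stayed positive and did not pass the limit. Without the libraries of other tissue they were 0.37 against anti-PD-1 and 0.87 against vehicle. Ifng rests on between 1 and 339 counts per library, so the covariate carries counting error of its own. With Cd8a as the covariate the values against anti-PD-1 were also smaller, -0.15 for Pdcd1lg2 (SE 0.31) and 0.56 for Cd274 (SE 0.30). Against vehicle they were 0.79 (SE 0.36) and 1.16 (SE 0.35). None of these passed (edgeR adjusted p from 0.126 to 0.837, with 0.328% and 0.153% of genes called). Ifng itself gave 1.02 in combination against anti-PD-1 (SE 0.55, edgeR adjusted p = 0.334). The part of T cell content in these values was not tested.

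The log2 ratio of Cd274 to Ifng gave no difference past the limit in the 5 comparisons made. It was 2.59 ± 1.07 with the combination (SD, n = 16), 2.74 ± 1.39 with anti-PD-1 (n = 17) and 2.32 ± 0.97 with vehicle (n = 9). Combination against anti-PD-1 differed by -0.15 (permutation p = 0.721, adjusted p = 0.772 over 15 ratio comparisons). A ratio takes Cd274 to move 1 log2 unit per log2 unit of Ifng, whereas the fitted slope was 0.44. It therefore tends to be lower where Ifng is higher. This is a different measure from the difference at equal Ifng, which was 0.63, so the ratio does not show that Cd274 was unchanged relative to Ifng. The ratio of Pdcd1lg2 to Cd274 was -3.23 ± 1.12 with the combination and -2.70 ± 0.95 with anti-PD-1, a difference of -0.53 (permutation p = 0.147, adjusted p = 0.551). Among combination tumours it was -2.96 ± 1.16 in R (n = 12) and -4.06 ± 0.39 in NR tumours (n = 4), a difference of 1.11 (exact permutation p = 0.0907, adjusted p = 0.453).

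The receptor followed Cd8a closely. Cd8a held a lowest, median and highest level of 0.550, 8.94 and 25.1 CPM in vehicle tumours, 1.05, 3.38 and 32.6 under celecoxib, 0.124, 1.42 and 47.5 under anti-PD-1, and 0, 15.96 and 84.8 under both agents. The tumour highest in Cd8a, combination replicate 1, was also the highest in Pdcd1. In a fit with treatment and Cd8a, Pdcd1 had a slope of 0.96 log2 units per log2 unit (SE 0.05, 95% interval 0.87 to 1.06, edgeR adjusted p = 2.33e-22), where 32.3% of genes were called. The ligands had slopes on Cd8a of 0.32 for Cd274 (SE 0.06, edgeR adjusted p = 4.38e-05) and 0.59 for Pdcd1lg2 (SE 0.06, edgeR adjusted p = 1.01e-10).

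Centred on treatment, Pdcd1 and Cd8a had a Pearson r of 0.94 and a rho of 0.95 over 49 tumours (permutation p = 1e-05 for both, adjusted p = 1e-05), and r was 0.94 without the 2 farthest tumours. Inside treatments r was 0.98 with vehicle (adjusted exact permutation p = 0.000137, n = 9), 0.92 with celecoxib (adjusted exact permutation p = 0.0120, n = 7), and 0.95 under anti-PD-1 as well as the combination (both adjusted permutation p = 4e-05). Pdcd1 and Ifng had an r of 0.91 over all tumours. The receptor and its ligands were also correlated, with r of 0.87 for Pdcd1 and Pdcd1lg2, 0.75 for Cd274 and Pdcd1lg2 and 0.69 for Pdcd1 and Cd274 (permutation p = 1e-05 for each, over 49 tumours). Inside vehicle tumours the pairs with Cd274 were weaker, at 0.41 with Pdcd1 (adjusted exact permutation p = 0.279, n = 9) and 0.44 with Pdcd1lg2 (adjusted exact permutation p = 0.252, n = 9).

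At equal Cd8a the difference of Pdcd1 between combination and anti-PD-1 turned from 1.33 to -0.50 (SE 0.24, 95% interval -0.98 to -0.01, unadjusted p = 0.0453, edgeR adjusted p = 0.275, with 0.328% of genes called). Against vehicle at equal Cd8a it was -0.42 (SE 0.25, edgeR adjusted p = 0.390, with 0.153% called). Neither passed. At equal Ifng it was -0.13 against anti-PD-1 (SE 0.31, edgeR adjusted p = 0.863) and -1.11 against vehicle (SE 0.33, unadjusted p = 0.00161, edgeR adjusted p = 0.102). Cd8a rests on between 0 and 583 counts per library, with at most 3 counts in 3 of 49 libraries. As a covariate it also carries counting error.

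**Figure D4:**
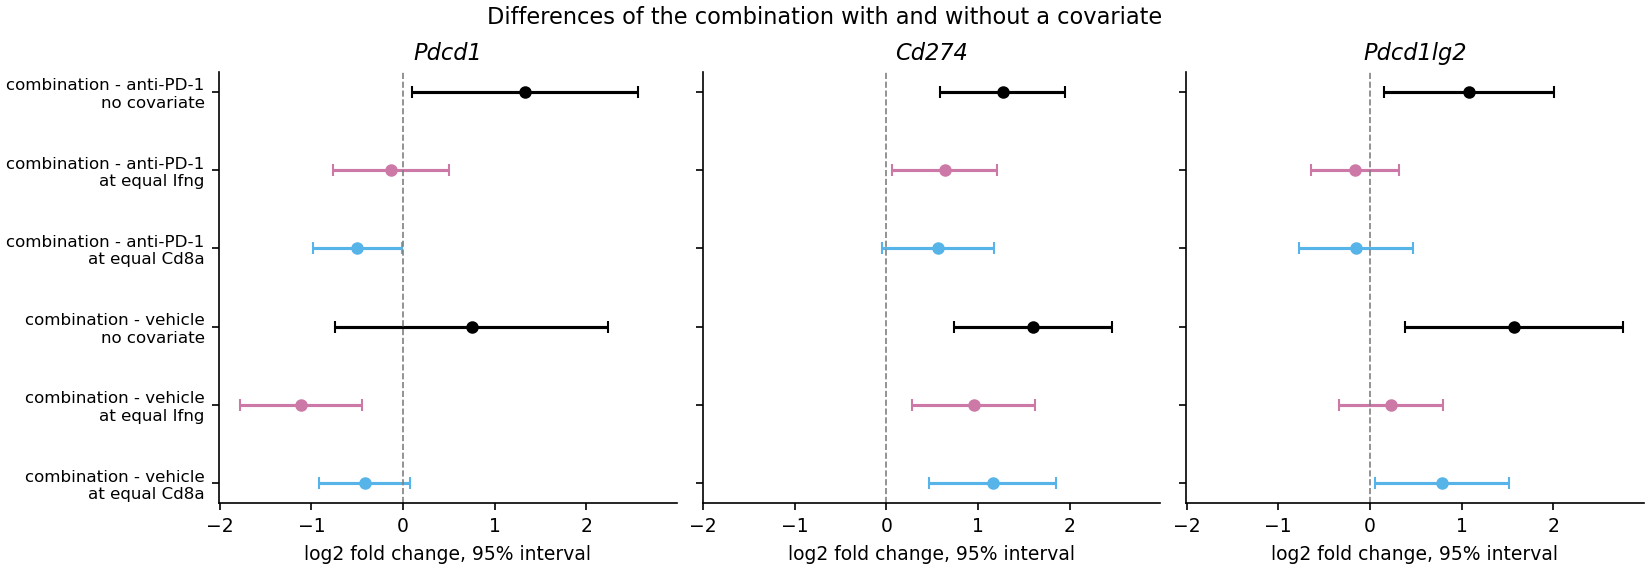
Log2 fold change with its 95% interval (x axis) of combination against anti-PD-1 and against vehicle (y axis), without a covariate (black), at equal Ifng (pink) and at equal Cd8a (light blue). Against anti-PD-1 the values of Pdcd1 and Pdcd1lg2 move from 1.33 and 1.08 to below 0 with either covariate, while Cd274 stays at 0.63 at equal Ifng and 0.56 at equal Cd8a.

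The log2 ratio of Pdcd1 to Cd8a, computed in each tumour, was lower with the combination (-0.68 ± 0.77, SD, n = 16) than with anti-PD-1 (0.08 ± 0.68, n = 17). The difference of -0.77 had a permutation p of 0.00314 and an adjusted p of 0.0471 over 15 ratio comparisons, and was the 1 of the 15 that passed. The ratio was below 0 in 15 of 16 combination tumours and 10 of 17 anti-PD-1 tumours. The call was narrow. It was lost in 22 of 33 fits that left out 1 tumour, with differences from -0.86 to -0.63, and kept only without anti-PD-1 replicates 1, 2, 7, 8, 13 or 17 or combination replicates 1, 2, 3, 4 or 6. It was also lost with a prior count of 0.5 (-0.90, adjusted permutation p = 0.192) and without the libraries of other tissue (-0.76, adjusted permutation p = 0.541). Against vehicle the difference was -0.54 (exact permutation p = 0.0548 and adjusted p = 0.411). The lowest ratio, -2.75, was that of combination replicate 10, where Pdcd1 had 0 counts. The highest anti-PD-1 ratio, 1.575, was that of anti-PD-1 replicate 6, where Cd8a had 1 count.

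**Figure D5:**
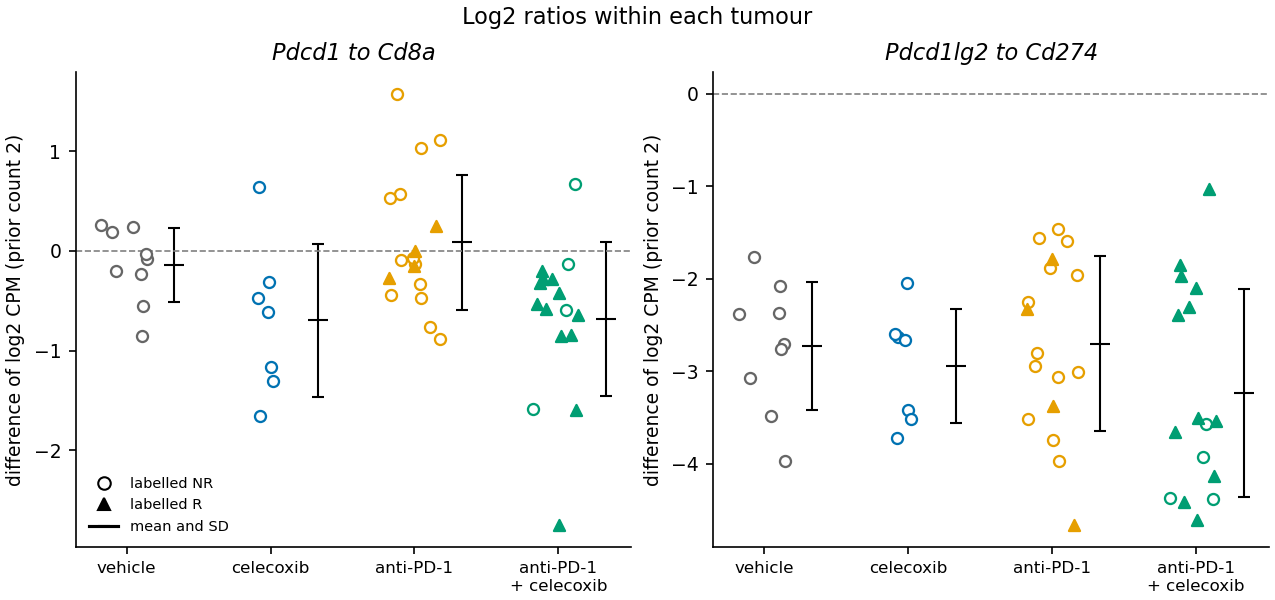
Log2 ratio within each tumour (y axis, difference of log2 CPM with a prior count of 2) of Pdcd1 to Cd8a and of Pdcd1lg2 to Cd274, by treatment (x axis), with open circles for NR, filled triangles for R and black bars for the mean and SD. For Pdcd1 to Cd8a, 15 of 16 combination tumours lie below the dashed line at 0, against 10 of 17 anti-PD-1 tumours.

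The genes whose pattern over tumours was most like each member were ranked by Spearman rho of treatment-centred log2 CPM over 49 tumours and 13725 genes, as a description. For Pdcd1, Cd8a ranked first with 0.952, followed by Tmem51 (0.952), Cxcr6 (0.950), a chemokine receptor of tissue T cells, Slc17a6 (0.946) and Nkg7 (0.940), a cytotoxic granule gene. For Pdcd1lg2, Ifng ranked first with 0.942, followed by the guanylate-binding protein gene Gbp8 (0.930), Acod1 (0.927), which makes itaconate in activated macrophages, Il18bp (0.923), which encodes an inhibitor of interleukin-18, and Rnf19b (0.916). For Cd274 the first 5 were Sp140 (0.881), Slamf8 (0.871), the inflammatory caspase gene Casp4 (0.870), Cd74 (0.867), the invariant chain of MHC class II, and Gbp7 (0.857). Ifng ranked 205 for Cd274, with 0.710, and Cd8a ranked 241, with 0.699. For Pdcd1lg2, Cd8a ranked 109, with 0.840. The median rho over all genes was -0.04 for each member, and the upper 5% began at 0.702 for Pdcd1, 0.670 for Pdcd1lg2 and 0.566 for Cd274. All these values share the library and its depth.

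The other genes of the pathway were taken from 10 lists, in which Ctla4, Cd80, Cd86 and Jak2 each stand in more than 1 list. By edgeR none of 106 tested list genes passed the limit in combination against anti-PD-1, with 43 at an unadjusted p under 0.05, against 17.2% of all genes. DESeq2 called 8 of them, against 2.16% of all genes, all with positive values, among them Il10, Il27, Irf1, Irf2, Ptpn6, Socs1 and Tbx21. In the mean effect of the label edgeR called none of 108, with 26 at an unadjusted p under 0.05 (14% of all genes), and DESeq2 called Hif1a, Lgals3 and Wars (1.17% of all genes). The genes named were from the 2 of each list with the smallest p in combination against anti-PD-1, and their values are log2 fold changes of that comparison. Over all genes tested the median was -0.0022. In the same comparison 12 of 12 T cell markers had positive values with a median of 1.1, and 8 of 9 macrophage and monocyte markers with a median of 0.54, and the part of these cell types in the list values was not tested.

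Around the receptor, 8 of 9 genes of PD-1 signalling and the kinases of the T cell receptor had positive values, with a median of 0.84. They included Ptpn6, which encodes the phosphatase SHP-1, at 0.86 (SE 0.25, edgeR adjusted p = 0.0794). Lck and Cd247 of this list also stand among the T cell markers, so the list is not separate from them. Of 15 transcription factor genes known to act on Pdcd1, 12 were positive with a median of 0.33. Tbx21, which encodes T-bet, stood at 1.44 (SE 0.39, edgeR adjusted p = 0.0674) and Tox, a factor of persistently stimulated T cells, at 1.42 (SE 0.46, edgeR adjusted p = 0.107). Of 7 ligand partners and CD28 family genes 6 were positive with a median of 0.19, among them the co-stimulatory receptor genes Cd28 at 1.06 (SE 0.35, edgeR adjusted p = 0.114) and Icos at 0.76 (SE 0.32, edgeR adjusted p = 0.218).

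Around the ligands, all 12 genes of the interferon-gamma pathway had positive values with a median of 0.29. Socs1, a feedback inhibitor of JAK kinases, stood at 0.94 (SE 0.25, edgeR adjusted p = 0.0595) and Irf2 at 0.54 (SE 0.15, edgeR adjusted p = 0.0741). All 22 interferon-gamma response genes were positive with a median of 0.55, including B2m, the light chain of MHC class I, at 0.45 (SE 0.14, edgeR adjusted p = 0.107) and the MHC class II gene H2-Aa at 1.09 (SE 0.36, edgeR adjusted p = 0.111). The 12 other regulators of PD-L1 lay close to the background with a median of 0.07, with Spop, which marks PD-L1 for degradation, at 0.23 and Gsk3b at 0.24 (edgeR adjusted p = 0.218 and 0.297). Of the 5 tested genes beside the ligands on chromosome 19, 4 were positive with a median of 0.14, and Ermp1 stood at -0.26 and Plgrkt, next to Cd274, at 0.31 (edgeR adjusted p = 0.0994 and 0.218).

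Among other checkpoint genes, 8 of 9 inhibitory receptors were positive with a median of 0.52, with Cd244a at 0.94 and Havcr2, which encodes TIM-3, at 0.89 (edgeR adjusted p = 0.194 and 0.220). Of 8 ligands of such receptors 4 were positive with a median of 0.01. Cd276, which encodes B7-H3, stood at -0.51 (SE 0.17, edgeR adjusted p = 0.112) and Nectin2 at -0.09 (edgeR adjusted p = 0.633). Of 11 T cell stimulation and cytokine genes 10 were positive with a median of 0.77, with Il27 at 1.16 and Il10 at 1.21 (edgeR adjusted p = 0.0921 and 0.101).

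The same lists had many members that varied with Ifng inside treatments. The counts are to be read against the 34.6% of all genes called there in either direction, with 2460 of the 4752 called genes rising. Of the 22 response genes 21 rose with Ifng, of the 12 pathway genes 10, of the 9 inhibitory receptors all 9, and of the 9 signalling genes 7. Of the 12 other regulators of PD-L1, 1 rose (Hif1a) and 3 fell (Myc, Spop and Stub1), together a share close to that of all genes. Of the 8 ligands of other inhibitory receptors, Cd86 rose while Pvr, Ceacam1 and Cd276 fell with Ifng. Rgmb, which encodes another binding partner of PD-L2, fell with a slope of -0.29 (SE 0.08, edgeR adjusted p = 0.00628), the opposite direction to Pdcd1lg2 itself. Of the 5 tested genes beside the ligands Jak2 and Insl6 rose, while Plgrkt (slope 0.07, edgeR adjusted p = 0.0732), Ric1 and Ermp1 did not pass. These genes were named after their slopes were seen.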

How the data were processed

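QuantSeq 3′ FWD libraries were made from total RNA of bulk tumours, per the labels' protocols. The deposited table holds raw counts per Ensembl gene (39179 genes, 37607 with a symbol), which the authors made with bcl2fastq, STAR and featureCounts on mm10 or GRCm38, per the submitters' processing notes, without versions. A second deposited table of log2 values for 16559 genes equals log2 of the count plus 0.5 minus 1 constant per library (largest spread over the members and comparison genes 3.89e-10), and served as an alternative. Symbols and positions come from GENCODE on GRCm38, promoters from RefSeq on GRCm38.p6.

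Tests used edgeR 4.0.16 in R 4.3.3 (TMM, filterByExpr, robust quasi-likelihood fits, Benjamini-Hochberg over all tested genes, limit 0.05) with 49 libraries in 1 fit of 4 treatments (13726 genes) or of 6 treatment and label groups (14247 genes). Standard errors are the fold change over the root of F. Covariates and correlations used log2 CPM with a prior count of 2. Permutation tests were two-sided, exact where a group held under 10 tumours, in Python 3.11.15 with scipy 1.17.1. Alternatives were DESeq2 1.42.0, limma-voom (limma 3.58.1), RLE, no filter, the compared groups alone, a muscle covariate, removal of 14 libraries with muscle (mean log2 CPM over 3) or skin or adipocyte markers (over 5), and leaving out each tumour. The scripts were tested on simulated data.

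The 3 members, the lists, the tests and the rule for naming genes were chosen with earlier results of these data known. The rule names the members, Ifng, Cd8a, list genes past the limit in combination against anti-PD-1 or the mean label effect (otherwise the 2 with the smallest p) and the 5 genes most like each member, without predicted genes or antigen receptor segments. A gene that the rule names and a motif that was searched are not reported here.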

Additional observations from a re-analysis of the deposited data

How the results depend on the processing

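No paired analysis was possible because the labels give no replicate number that groups share. Over 67 results, 341 of 353 values under the alternatives and 2554 of 2611 values without 1 tumour kept their direction and their side of the limit. Most of these results had not passed the limit, many with an adjusted p far above it, so keeping their side says little. The 1 group difference that had passed, the ratio of Pdcd1 to Cd8a, did not pass in any of its 3 alternatives. DESeq2 put Cd274 past the limit in combination against anti-PD-1 (1.27) and against vehicle (1.61). Signs turned only in values that did not pass the limit. Pdcd1lg2 in celecoxib against vehicle was -0.034 with the muscle covariate and -0.17 to 0.27 without 1 tumour. With limma-voom, anti-PD-1 against vehicle was -0.057 for Cd274 and -0.51 for Ifng. The difference of the label effects for Cd274 was -0.74 without libraries of other tissue and -0.20 to 0.60 without 1 tumour, and the R against NR value of Pdcd1lg2 with anti-PD-1 was -0.16 to 0.70. The mean label effect of Cd8a was -0.046 to 1.04 without 1 tumour. The ratio of Pdcd1 to Cd8a, combination against anti-PD-1, did not pass with a prior count of 0.5 (-0.90), the deposited log2 table (-0.88) or without libraries of other tissue (-0.76), and was -0.86 to -0.63 without 1 tumour. The ratio of Cd274 to Ifng, R against NR with anti-PD-1, was -0.039 without libraries of other tissue and -0.35 to 1.09 without 1 tumour. The ratio of Pdcd1lg2 to Cd274, anti-PD-1 against vehicle, was -0.0016 with a prior count of 0.5, -0.0014 with the deposited table, -0.17 without other tissue and -0.13 to 0.15 without 1 tumour. For R against NR with anti-PD-1 it was -0.86 to 0.10. Cd274 without 1 tumour was 1.09 to 1.46 against anti-PD-1 and 1.43 to 1.69 against vehicle. The cause of these changes was not tested. The slopes on Ifng and Cd8a passed the limit in every alternative and without any 1 tumour. They were 0.41 to 0.89 for Cd274 and 0.76 to 1.33 for Pdcd1lg2 on Ifng, and 0.89 to 1.48 for Pdcd1 on Cd8a, the highest with means of 3 other genes as the covariate (Cxcl9, Gbp2 and Irf1, or Cd3d, Cd3e and Cd3g). The 7 correlations over all tumours also passed in every alternative.

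The number of genes called moved more than the members did. Combination against anti-PD-1 called 69 genes by edgeR, 8 to 297 over the alternatives and 13 to 449 without 1 tumour. Combination against vehicle called 10, 2 to 425 and 2 to 157. The mean label effect called 7, 0 to 167 and 0 to 25. Anti-PD-1 against vehicle called 12 and 8 to 24, combination against celecoxib 5 and 0 to 124, celecoxib against vehicle 0 and 0 to 49, and combination against anti-PD-1 among NR tumours 4 and 4 to 13. At equal Ifng the counts were 62 (14 to 60) against anti-PD-1 and 41 (16 to 1010) against vehicle, and at equal Cd8a 45 (24 to 39) and 21 (8 to 928). Among the members depth limits Pdcd1 and Pdcd1lg2 most: 4 and 3 of 49 libraries held at most 3 counts of them.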

Other observations

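The ratio of Pdcd1 to Cd8a with celecoxib alone was not among the 15 ratio comparisons, and is given as a value seen after the others. It was -0.70 ± 0.76 (SD, n = 7, from -1.66 to 0.64), below 0 in 6 of 7 tumours. That lies beside -0.68 ± 0.77 in the combination (n = 16), while vehicle held -0.14 ± 0.37 (n = 9) and anti-PD-1 0.08 ± 0.68 (n = 17). No test was run on celecoxib alone. In 3 of its 7 tumours Pdcd1 had 4 counts, so single values there carry a large counting error.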
